A study of Mus musculus with 120 samples.

Results

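The nuclear-encoded subunits of the mitochondrial respiratory chain were followed across 3 mouse brain regions, 2 times of day, 2 genotypes and 2 delivered genes. Members were the genes whose symbols match the mouse naming pattern of these subunits: Nduf for complex I, Sdh for complex II, Uqcr and Cyc1 for complex III, Cox5 to Cox8 for complex IV and Atp5 for ATP synthase, also called complex V. The pattern matched 83 of 49466 genes, and 4 of them had a mean below 1 FPKM (fragments per kilobase of exon, scaled to library size). The remaining 79 genes are the members: 37 of complex I, 4 of complex II, 9 of complex III, 12 of complex IV and 17 of complex V. Of the complex I genes, 7 encode the catalytic core and 30 encode accessory subunits. The pattern left out Cox4i1 and Cox4i2, and took in Atp5s and Atp5sl by name, although neither encodes a subunit of ATP synthase. It also put Ndufa4 with complex I, although its protein is now assigned to complex IV.

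The chain passes electrons from NADH (through complex I) and succinate (through complex II) to ubiquinone, then through complex III and cytochrome c to complex IV, which reduces oxygen. Complexes I, III and IV pump protons across the inner mitochondrial membrane, and ATP synthase uses the returning protons to make ATP, which neurons need for ion pumping and synaptic transmission. All but complex II also hold subunits encoded in mitochondrial DNA, and several complex IV subunits exist as isoforms from separate genes, among them a heart and skeletal muscle form of subunit 6A.

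RNA was taken from cortex, thalamus and hypothalamus of C57BL/6J mice kept in 12 h of light and 12 h of darkness, 3 weeks after retro-orbital injection of an adeno-associated virus (AAV). Polyadenylated RNA was sequenced in 120 libraries, in 30 groups of 4 biological replicates, and lights-on is zeitgeber time (ZT) 0. Wild-type (WT) mice received mCherry, HDAC4CA or CREB virus and were sampled at ZT12.5 in 36 libraries, whose values are in RPKM (reads per kilobase, scaled to library size). The other 84 libraries, in FPKM, came from WT mice with eGFP virus at ZT0.5 and ZT12.5 and from heterozygous Sik3E13Δ/+ mice, known as Sleepy, with eGFP or HDAC4CA virus at both times or CREB virus at ZT12.5. Every mouse, controls included, thus carried a virus and a delivered protein: mCherry and eGFP are fluorescent proteins, HDAC4CA derives from the class IIa deacetylase HDAC4, an enzyme that acts with repressors of transcription, and CREB is a cAMP-responsive transcription factor. SIK3 is a kinase known to phosphorylate class IIa deacetylases, and the Sleepy allele is known for long sleep. The design text calls the wild-type vectors ABC-HDAC4CA and ABC-CREB without explaining the prefix. The promoter behind each delivered gene, the age and sex of the mice, and whether the 3 regions with the same number came from 1 mouse are not given in the sources used here.

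Recovered read totals were 14.8 to 28.2 M reads per RPKM library and 13.5 to 24.5 M per FPKM library. Region markers were checked in WT eGFP mice: between thalamus and hypothalamus, 6 of 6 thalamic markers were higher in thalamus and 8 of 8 hypothalamic markers in hypothalamus, while 5 cortical markers were higher and 1 was lower in cortex than in thalamus. The hypothalamic marker sum was 34.6 to 102 FPKM in thalamus, 3.02 to 7.51 in cortex and 443 to 555 in hypothalamus. In Sleepy eGFP thalamus it was 6.23 to 119. The thalamic marker sum in WT eGFP mice was 30.7 to 35.9 in hypothalamus and 143 to 182 in thalamus. The delivered gene was checked first. Hdac4 was higher with HDAC4CA by 0.76 to 1.88 on the log2 scale in all 9 comparisons, and Creb1 was higher with CREB by 0.46 to 2.82 in 6, although the smallest, in WT hypothalamus, missed the threshold (adjusted p = 0.132). In the 12 RPKM cortex libraries the number 4 library of each of the 3 groups stood apart from the other 9. The mean log2 level of the cytosolic ribosomal protein genes was 1.64 to 1.65 in those 3 and 3.87 to 4.00 in the 9, against 1.69 to 2.03 in the 24 RPKM libraries of thalamus and hypothalamus and 4.13 to 4.60 in the 84 FPKM libraries. Of the 79 members, 6 differed by 1 or more on the log2 scale between the number 4 libraries and the rest: Atp5g2 (-3.29), Cox7c (-2.44), Atp5h (-1.55), Atp5g1 (-1.24), Uqcrb (-1.20) and Cox5b (-1.02). The cause of these differences was not tested.

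Member levels spanned about 2 orders of magnitude on the length-scaled FPKM scale. Cox8a, a small complex IV subunit, had the highest mean (126 FPKM over 84 libraries), followed by Atp5b (109) and Atp5a1 (105), the catalytic beta subunit and the alpha subunit of the ATP synthase head. The lowest members were Cox7a1 (1.33) and Cox6a2 (2.6), the heart and muscle isoforms of their subunits, and Atp5l (3.19), subunit g of ATP synthase. The order between genes depends on the exon length used. Atp5l, at 6443 bases, had means of 312 to 433 reads by region in WT eGFP mice. Ndufa11, at 1092 bases and 7.42 FPKM, had 108 to 186.5. Just under the limit of 1 FPKM were Cox6b2 (0.694), Cox8b (0.456) and Cox7b2 (0.237), all tissue-restricted isoforms, with Cox8c listed at 0. In the RPKM libraries Atp5a1 and Atp5b were highest (both 136 RPKM), then Cox8a (114). Levels set across both kinds of file were not compared further.

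Promoters of 4 members that carry the results below are printed because CREB, one of the delivered proteins, binds the palindrome TGACGTCA and its part TGACG. The RefSeq sequences (GRCm38.p6) give the 250 bases before each annotated start, with TGACGTCA or TGACG, GCATGCGC (the NRF1 motif), CCGGAAG (the ETS core that GABPA binds) and GGGGCGGGG (the SP1 motif) in capitals on whichever strand they lie. Cox6a1, on the minus strand, was read at chr5:115348959-115349208 and holds overlapping NRF1 matches on both strands and 1 ETS match. Ndufa10, on the minus strand at chr1:92473759-92474008, holds the full TGACGTCA and an SP1 match. Atp5b, on the plus strand at chr10:128083057-128083306, holds TGACG at 2 places and an SP1 match. Uqcr11, on the minus strand at chr10:80406822-80407071, holds an ETS match.
Cox6a1: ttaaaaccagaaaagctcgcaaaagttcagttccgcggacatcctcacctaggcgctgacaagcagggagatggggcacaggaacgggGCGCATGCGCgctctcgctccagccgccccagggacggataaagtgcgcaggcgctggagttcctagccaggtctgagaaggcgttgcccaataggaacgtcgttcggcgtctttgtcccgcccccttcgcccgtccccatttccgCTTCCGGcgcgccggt
Ndufa10: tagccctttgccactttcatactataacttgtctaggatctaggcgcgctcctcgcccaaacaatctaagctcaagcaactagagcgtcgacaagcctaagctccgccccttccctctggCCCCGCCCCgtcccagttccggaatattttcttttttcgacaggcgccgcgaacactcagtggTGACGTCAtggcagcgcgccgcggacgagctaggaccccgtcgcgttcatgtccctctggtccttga
Atp5b: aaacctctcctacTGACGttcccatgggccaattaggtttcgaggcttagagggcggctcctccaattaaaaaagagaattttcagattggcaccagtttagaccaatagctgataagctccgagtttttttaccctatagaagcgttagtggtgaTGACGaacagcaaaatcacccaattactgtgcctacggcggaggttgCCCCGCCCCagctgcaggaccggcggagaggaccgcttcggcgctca
Uqcr11: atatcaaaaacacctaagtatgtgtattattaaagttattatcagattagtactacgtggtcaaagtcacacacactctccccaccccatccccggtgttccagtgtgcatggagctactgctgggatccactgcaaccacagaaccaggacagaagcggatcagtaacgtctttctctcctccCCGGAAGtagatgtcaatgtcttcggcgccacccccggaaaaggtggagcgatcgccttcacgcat

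Of the 79 members 67 matched a RefSeq promoter by symbol, and each was searched on both strands over 300 bases, 250 before and 50 after the start. TGACGTCA was found in 4 of the 67 (5.97%; Ndufa10, Ndufa11, Ndufb2 and Uqcrfs1) and in 1.88% of 27025 promoters. TGACG, which includes every full motif, was found in 24 (35.8%, against 21% of all). The NRF1 motif, as TGCGCATG or GCATGCGC, was in 13 (19.4% against 3.42%), CCGGAAG in 15 (22.4% against 9.12%), GGGGCGGGG in 11 (16.4% against 11.6%) and AAGATGGCG, the YY1 motif, in 7 (10.4% against 1.49%). These are matches of letters and no test was made of them.

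The region comparison asked how the subunit genes differ between cortex, thalamus and hypothalamus, in the 8 WT eGFP libraries of each region over both times. Most members were highest in thalamus: 67 of 79 had their highest mean there, 5 in cortex and 7 in hypothalamus, and none had its lowest mean there. The summed level of all 79 was 1816 FPKM in cortex, 2068 in thalamus and 1640 in hypothalamus. Against hypothalamus, 56 members were higher in thalamus and 1 was lower of 79 tested (limma, adjusted p below 0.05), when 57.7% of all genes tested were called and 29.1% were called higher. The median difference was 0.28 on the log2 scale over the members and -0.00010 over all genes. Cortex was lower than thalamus for 55 members and higher for 0 of 79, beside 59.6% of all genes called and 30.9% called lower, with medians of -0.22 and -0.02. Cortex against hypothalamus was split, with 27 higher and 14 lower of 78, where 65.4% of all genes were called, and medians of 0.04 and -0.01. The members' share called was 72.2%, 69.6% and 52.6% in the 3 pairs, in that order.

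**Figure D1:**
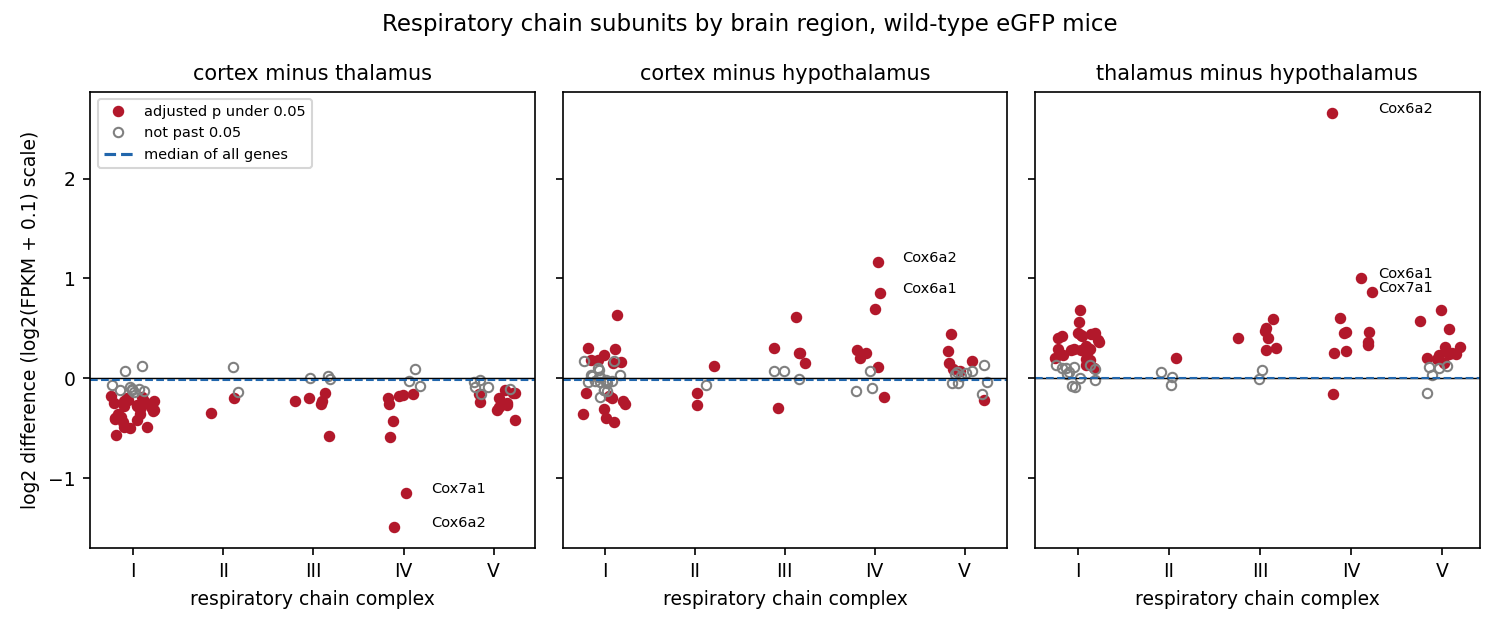
Log2 difference of each member between regions in WT eGFP mice (8 libraries per region), in 3 panels for the 3 region pairs, by complex. Each point is 1 gene, filled where limma's adjusted p is below 0.05, and the dashed line is the median of all genes tested. Most points lie below the line for cortex minus thalamus (55 called lower, 0 higher) and above it for thalamus minus hypothalamus (56 called higher, 1 lower).

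These counts came with 2 facts about the tissue. Scaling mattered. With the deposited values not rescaled, the median of all genes was -0.29 for cortex against thalamus, -0.42 for cortex against hypothalamus and -0.13 for thalamus against hypothalamus. The members called became 0 higher and 78 lower, 5 and 69, and 34 and 5. Relative to those medians of all genes the members' medians were -0.22, 0.03 and 0.27. Cell markers moved as well. All 8 oligodendrocyte markers were higher in thalamus than in both other regions (summed level 730 to 868 FPKM, against 240 to 297 in cortex and 346 to 425 in hypothalamus). Of 8 neuron markers, 4 were higher and 3 lower in cortex than in thalamus, and 6 were higher in thalamus than in hypothalamus, with sums of 575 to 619, 487 to 546 and 323 to 374 in cortex, thalamus and hypothalamus. The astrocyte sum was 322 to 382, 215 to 256 and 219 to 246. Of 10 choroid plexus markers, 10 were higher in thalamus than in cortex and 8 higher than in hypothalamus, with sums of 1.14 to 48.4, 12.6 to 955 and 6.92 to 9.31. The microglia sum was 47.3 to 65.5, 39.4 to 60.1 and 30.0 to 37.8, and the blood sum 50.7 to 129, 55.0 to 156 and 74.4 to 145. The part of these shifts in the members' differences was not tested, and in bulk tissue more cells of a type and more RNA per cell cannot be told apart.

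Complex I holds 37 of the 79 members, and its share called was close to that of all members. In thalamus 27 of 37 were higher than in cortex and 25 of 37 higher than in hypothalamus. Of all genes tested, 30.9% and 29.1% were called in these directions. Of the 7 core genes, 3 and 5 were called in these pairs, and of the 30 accessory genes, 24 and 20. Ndufv1, which carries the flavin that oxidises NADH, had a lowest, median and highest level of 20.8, 22.0 and 22.9 FPKM in cortex, 18.9, 24.1 and 27.5 in thalamus and 17.8, 19.4 and 20.1 in hypothalamus. Its thalamic libraries overlapped those of both other regions, and it differed from hypothalamus by 0.31 ± 0.05 (log2, SE; adjusted p = 9.73e-05) but not from cortex by the test (-0.12 ± 0.06 for cortex minus thalamus, adjusted p = 0.0716).

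Ndufa10 (chr1:92439010-92473860, minus strand, GRCm38), an accessory subunit of the membrane arm whose promoter is printed above, was at 13.1, 14.8 and 15.8 FPKM in cortex, 17.2, 19.2 and 21 in thalamus and 11, 11.7 and 12.8 in hypothalamus, with no overlap. The order of cortex and hypothalamus depended on the scaling: cortex minus hypothalamus was 0.30 for Ndufa10 and -0.13 with the deposited values not rescaled. Thalamus exceeded hypothalamus by 0.69 ± 0.04, or 1.61-fold (adjusted p = 1.62e-10), and cortex minus thalamus was -0.39 ± 0.05 (adjusted p = 1.48e-06). Ndufb9, also accessory, followed another order, at 60.6, 65.2 and 67.2 FPKM in cortex, 52.6, 61.4 and 69.3 in thalamus and 36.2, 42.4 and 45.9 in hypothalamus. Cortex and thalamus overlapped (0.07, adjusted p = 0.202) and both lay above every hypothalamic library. Ndufb2 and Ndufa6 instead were low in cortex: Ndufb2 was at 2.64, 3.00 and 3.57 FPKM there, 3.73, 4.13 and 4.58 in thalamus and 3.63, 4.03 and 4.45 in hypothalamus. The cortical libraries of Ndufb2 lay below all others, by -0.44 ± 0.05 against thalamus (adjusted p = 1.55e-06). For Ndufa6 the cortex-minus-thalamus difference was -0.57 ± 0.07 (adjusted p = 1.45e-06) and the cortex-minus-hypothalamus difference -0.44 ± 0.06 (adjusted p = 2.01e-06), and thalamus and hypothalamus did not differ by the test (0.13, adjusted p = 0.105).

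Complex II, which also works in the citric acid cycle, stood closest to no thalamic excess over hypothalamus, with 1 of 4 genes called higher and a median of 0.04. Sdha, the flavoprotein that oxidises succinate, was at 40.4, 44.0 and 47.5 FPKM in cortex, 46.4, 50.1 and 52.6 in thalamus and 49.4, 53.3 and 55.8 in hypothalamus. Its lowest region was cortex (-0.27 ± 0.03 against hypothalamus, adjusted p = 9.35e-07), and thalamus and hypothalamus overlapped (-0.07, adjusted p = 0.13). Sdhc, a membrane anchor, was the gene called higher in thalamus than in hypothalamus (0.21, adjusted p = 0.00316), at 10.3, 12.3 and 12.8 FPKM against 8.87, 10.4 and 10.9.

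In complex III, 6 of 9 genes were higher in thalamus than in cortex and 7 of 9 higher than in hypothalamus, with a median of 0.40 in the second pair. Uqcrc1, a core protein of the complex, was at 18.0, 19.7 and 22.5 FPKM in cortex, 18.7, 22.0 and 25.5 in thalamus and 15.7, 16.9 and 17.6 in hypothalamus, where every library lay below the rest (thalamus minus hypothalamus 0.40 ± 0.04, adjusted p = 6.83e-08). Cortex minus hypothalamus was 0.25 for Uqcrc1 and -0.18 with the deposited values not rescaled. Uqcr11, a small accessory subunit, was at 25.9, 29.6 and 33.8 FPKM in cortex, 24.7, 28.2 and 36.1 in thalamus and 17.6, 19.4 and 22.5 in hypothalamus. Cortex and thalamus overlapped for Uqcr11 (0.02, adjusted p = 0.753) and both exceeded hypothalamus, by 0.61 ± 0.06 and 0.59 ± 0.07 (adjusted p = 3.07e-08 and 5.4e-07). Uqcrh, the hinge protein between cytochrome c1 and cytochrome c, was lowest in cortex, at 12.7, 17.1 and 18.9 FPKM against 21.2, 24.7 and 28.5 in thalamus and 18.5, 20.54 and 23.3 in hypothalamus. Its thalamic libraries all lay above its cortical ones (-0.58 ± 0.06, adjusted p = 1.03e-07). Uqcrb, a subunit near the ubiquinone site, was called in none of the 3 pairs.

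Complex IV had the largest median difference between thalamus and hypothalamus of the 5 complexes, 0.46, with 11 of 12 genes higher and 1 lower. The isoform pair Cox6a1 and Cox6a2 showed it most. Cox6a1 (chr5:115345642-115348981, minus strand), the form found in most tissues, was at 93.6, 103 and 108 FPKM in cortex, 89.8, 118 and 135 in thalamus and 51.2, 57.1 and 60.9 in hypothalamus. Every hypothalamic library of Cox6a1 lay below every other, with thalamus 2.01-fold (log2 1.01 ± 0.06, adjusted p = 3.14e-10) and cortex 1.80-fold higher (0.85 ± 0.04, adjusted p = 4.25e-12). Between cortex and thalamus the groups overlapped (-0.16 ± 0.06, adjusted p = 0.0299), and that call was lost without ZT12.5 cortex libraries 1 or 3, ZT12.5 thalamus libraries 3 or 4, or library 1 of cortex or thalamus at ZT0.5 (adjusted p up to 0.0658).

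Cox6a2 (chr7:128205435-128206387, minus strand), the heart and muscle isoform, was far lower but more uneven. It was at 1.01, 2.18 and 2.57 FPKM in cortex (10 to 26 reads per library), 3.84, 5.03 and 8.43 in thalamus (39 to 124 reads) and 0.508, 0.725 and 1.23 in hypothalamus (8 to 21 reads). All thalamic libraries of Cox6a2 lay above all others, while cortex and hypothalamus overlapped at their ends. Thalamus was 6.32-fold above hypothalamus (2.66 ± 0.16, adjusted p = 1.38e-10) and 2.81-fold above cortex (cortex minus thalamus -1.49 ± 0.18, adjusted p = 1.38e-06), the largest fold of any member in both pairs. Both calls held when any 1 of the 16 libraries was left out. Pvalb, a marker of a class of inhibitory neurons that is on none of the marker lists and was chosen after its values were seen, had the same order of regions. It was at 10.03 to 12.6 FPKM in cortex, 26.8 to 31.0 in thalamus and 3.67 to 5.71 in hypothalamus, and its part in the Cox6a2 difference was not tested.

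The other isoform sets of complex IV differed less. Cox7a2, the broad form of subunit 7A, was at 22.3, 26.9 and 29.0 FPKM in cortex, 24.8, 29.8 and 31.4 in thalamus and 23.5, 24.8 and 25.7 in hypothalamus. Its muscle counterpart Cox7a1 reached 1.98 FPKM at most, with ranges that overlapped in all regions. It had 2 to 16 reads per library in cortex, 10 to 20 in thalamus and 5 to 20 in hypothalamus, and entered the comparison of cortex with thalamus only through the thalamic libraries. Its call there, among the 55 lower members, is therefore given as a description, and it was not tested between cortex and hypothalamus. Cox7a2l, which links complexes III and IV into supercomplexes, was the 1 complex IV gene lower in thalamus than in hypothalamus (-0.16 ± 0.05, adjusted p = 0.00849), at 27.5, 28.9 and 33.2 against 30.8, 32.8 and 36.0 FPKM. Cox7b, at 22.6, 24.2 and 29.9 FPKM in thalamus, lay above every library of cortex (14.9, 17.2 and 18.1) and of hypothalamus (15.9, 18.0 and 21), by 0.46 ± 0.07 against hypothalamus (adjusted p = 1.52e-05). Cox8a, at 126, 149 and 159 FPKM in cortex and 115, 142 and 160 in thalamus, stood above hypothalamus at 81.5, 90.3 and 101 in every library (0.70 ± 0.05 and 0.61 ± 0.06, adjusted p = 2.85e-10 and 1.08e-07). Cox6b1, which sits on the intermembrane side of the complex, was higher in thalamus than in hypothalamus by 0.36 (adjusted p = 3.62e-07). Cox5a, a matrix-side subunit, overlapped in every pair (0.28 for thalamus minus hypothalamus, adjusted p = 0.000281).

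Among complex V genes, 11 of 17 were higher in thalamus than in cortex and 12 of 17 higher than in hypothalamus. Atp5b (chr10:128083273-128090391, plus strand) had little spread within a region, at 96.3, 101 and 106 FPKM in cortex, 119, 126 and 134 in thalamus and 85.2, 90.0 and 92.4 in hypothalamus. No Atp5b libraries overlapped between regions: thalamus was 1.24-fold above cortex (cortex minus thalamus -0.32 ± 0.03, adjusted p = 4.62e-08) and 1.41-fold above hypothalamus (0.49 ± 0.03, adjusted p = 1.75e-10). Cortex minus hypothalamus was 0.18 for Atp5b and -0.25 with the deposited values not rescaled. Atp5d, the delta subunit of the central stalk, was at 23.4, 24.6 and 27.4 FPKM in cortex, 22.5, 31.3 and 35.7 in thalamus and 17.2, 18.5 and 19.96 in hypothalamus, with a wide thalamic range that the time comparison below divides. Atp5g1, Atp5g2 and Atp5g3 encode the same mature c-ring protein. Atp5g3 was the highest of them by median FPKM (29.0, 34.5 and 29.4 in cortex, thalamus and hypothalamus), then Atp5g2 (11.1, 12.6 and 10.7) and Atp5g1 (6.56, 9.09 and 6.01). The order of the last 2 depends on the exon length used, 1675 bases for Atp5g2 and 4912 for Atp5g1. By mean recovered reads it was reversed, at 281.5, 398.1 and 385.5 for Atp5g2 and 520.4, 846.6 and 658.5 for Atp5g1. Atp5g1 had the largest thalamic difference of the 3, 0.57 ± 0.05 against hypothalamus (adjusted p = 5.42e-08), beside 0.24 for both others (adjusted p = 0.0124 for Atp5g2 and 2.26e-05 for Atp5g3).

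**Figure D2:**
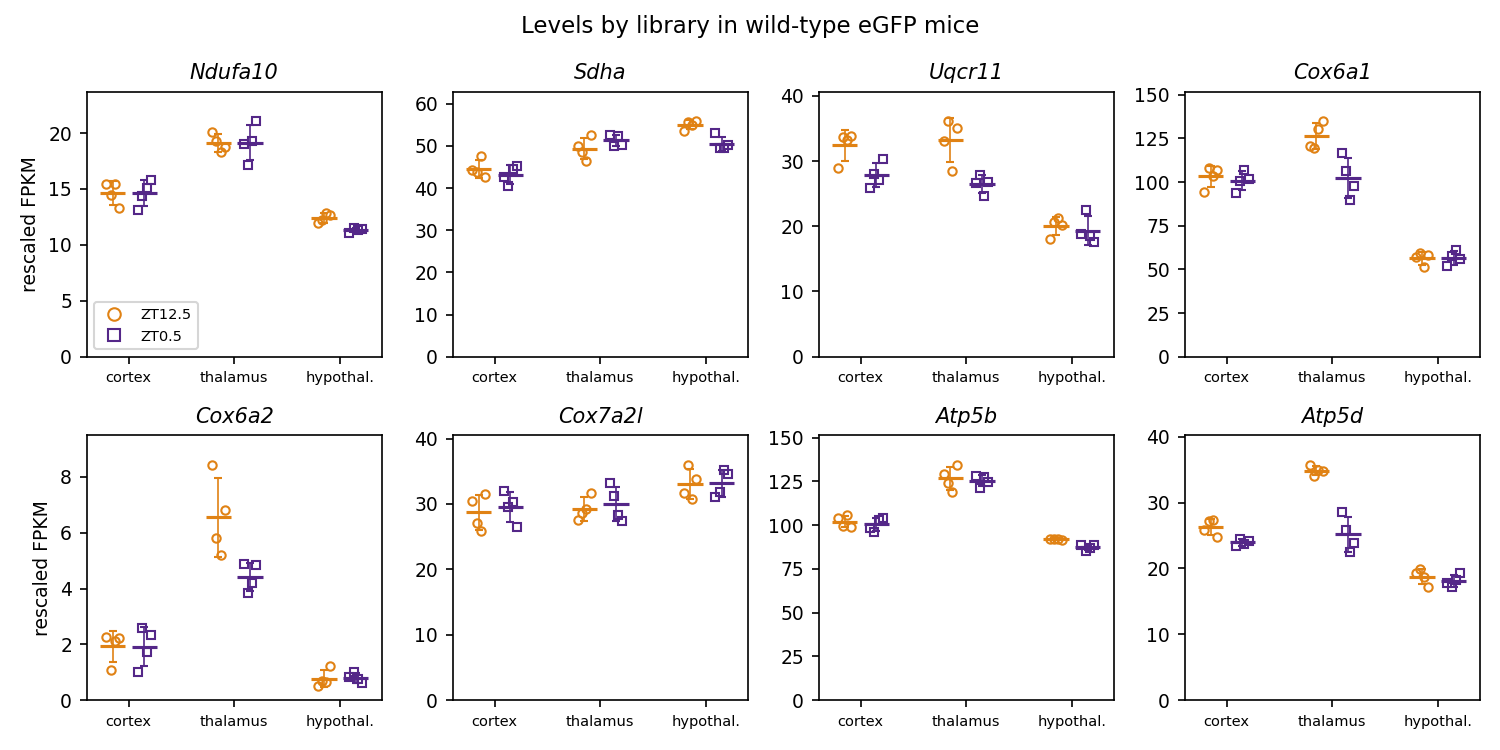
Rescaled FPKM of 8 members in each WT eGFP library by region, with circles for ZT12.5, squares for ZT0.5 and bars for the mean ± SD of the 4 libraries of each time. Atp5b and Cox6a2 show thalamic libraries above all others, with medians of 126 and 5.03 FPKM in thalamus.

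The same region pairs were measured in other mice. In Sleepy eGFP mice, 1 member was higher and 67 were lower in cortex than in thalamus of 79 (60.1% of all genes called), 22 and 17 of 78 differed between cortex and hypothalamus (64.3% called), and 62 and 3 of 79 between thalamus and hypothalamus (56.7% called). The libraries are separate from the WT ones, and 54 members were called in the same direction for cortex and thalamus in both genotypes (98.2% of the 55 WT calls and 79.4% of the 68 Sleepy calls). For thalamus and hypothalamus 55 were shared (96.5% of 57 and 84.6% of 65). Both shared sets include Cox7a1, which in Sleepy mice had mean reads of 6.75 in cortex, 16.6 in thalamus and 8.75 in hypothalamus. It entered both of these Sleepy comparisons only through the thalamic libraries, so its calls there are given as a description. In WT mCherry mice, on the RPKM scale at ZT12.5, 54 members were higher and 1 lower in thalamus than in hypothalamus (52.4% of all genes called), with a median of 0.24 beside -0.01 over all genes. Of those calls 50 were shared with WT eGFP mice (90.9% of 55 and 87.7% of 57). The matching overlaps over all genes were not computed, so these shares have no background beside them.

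Genes related to the respiratory chain but outside the set were counted by lists. Of 13 mitochondrially encoded genes, 5 were higher and 0 lower in thalamus than in hypothalamus (median 0.20), and 4 were lower in cortex than in thalamus (median -0.13). Of 16 citric acid cycle genes, 9 were higher and 0 lower in thalamus than in hypothalamus (median 0.15), and 10 were lower and 1 higher in cortex than in thalamus. Glycolysis genes, 16 in all, gave 14 higher and 1 lower in thalamus than in hypothalamus but 7 higher and 7 lower in cortex than in thalamus. Assembly factors of the complexes were mixed, at 12 higher and 8 lower of 46 for thalamus against hypothalamus, and so were 75 mitochondrial ribosomal protein genes, at 16 and 10. The cytosolic ribosomal protein genes went the other way, with 5 higher and 53 lower of 79.

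Time of day was compared within eGFP mice, 4 libraries at ZT12.5, just after lights-off, against 4 at ZT0.5, just after lights-on. In WT thalamus 17 members were higher and 6 lower at ZT12.5 of 79, when 25.5% of all genes tested were called. In Sleepy thalamus 16 were higher and 5 lower of 79, beside 20.8% of all genes. Both shares of members (23 and 21 of 79) are close to the background, and the members' medians were 0.0042 and 0.05, beside -0.0029 and 0.0062 for all genes. Sleepy cortex gave 11 higher and 1 lower of 78, beside 5.77% of all genes (medians 0.06 and 0.01). That count fell to 5 without ZT12.5 library 3 or 4 or ZT0.5 library 1, and to 6 without library 2 of either time. With the deposited values not rescaled it was 1, with 0 higher and 1 lower, and with no filter on low values it was 5. The Sleepy thalamus count went to 13 without ZT12.5 library 1 and 12 without ZT0.5 library 1. No member was called in WT cortex (1.53% of all genes called; 20 members at an unadjusted p below 0.05 and 2 by voom), WT hypothalamus (0.22%; 14 and 0) or Sleepy hypothalamus (0.284%; 7 and 0).

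**Figure D3:**
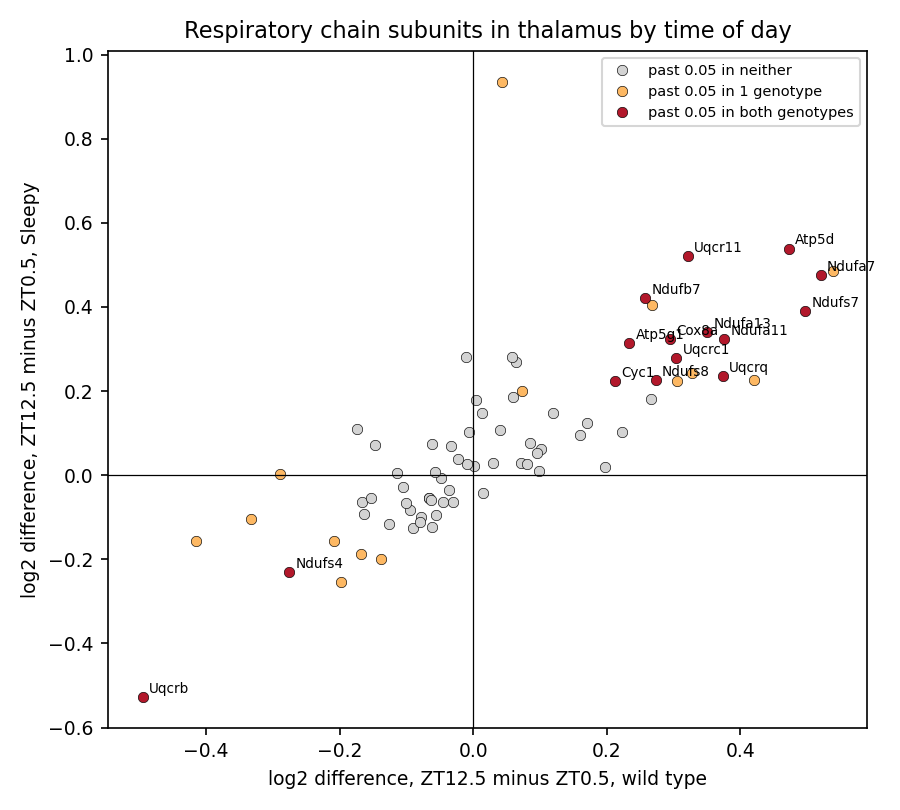
Log2 difference ZT12.5 minus ZT0.5 in thalamus for each member, in WT eGFP (horizontal axis) and Sleepy eGFP mice (vertical axis), coloured by whether limma called it in neither, in 1 or in both genotypes. Members called in both lie toward the upper right, such as Atp5d (0.47 and 0.54) and Ndufa7 (0.52 and 0.47), with Uqcrb at the lower left (-0.49 and -0.53).

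The members called in thalamus were shared in part between the genotypes, which share no libraries. In the same direction 15 were called in both, 65.2% of the 23 in WT and 71.4% of the 21 in Sleepy mice. The matching overlap over all genes was not computed, so whether the members overlap more than other genes was not tested. The higher ones were Atp5d, Atp5g1, Cox8a, Cyc1, Ndufa7, Ndufa11, Ndufa13, Ndufb7, Ndufs7, Ndufs8, Uqcr11, Uqcrc1 and Uqcrq, and the lower ones Ndufs4 and Uqcrb. They came from complexes I, III, IV and V and from none of the complex II genes. No member had a time difference that differed between the genotypes by the interaction test in thalamus (0% of all genes called; 7 members at an unadjusted p below 0.05 and 0 by voom), cortex (0%; 5 and 0) or hypothalamus (0%; 2 and 0).

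Atp5d (chr10:80138632-80145818, plus strand) was among the clearest. In WT thalamus it was at 35.7, 34.1, 34.9 and 34.8 FPKM at ZT12.5 and 28.6, 25.8, 22.5 and 23.9 at ZT0.5, and in Sleepy thalamus at 35.6, 35.6, 33.3 and 41.0 against 24.5, 24.5, 27.8 and 23.1. No library overlapped between the times in either genotype, and the differences were 0.47 ± 0.07 (adjusted p = 0.00162) and 0.54 ± 0.07 (adjusted p = 0.00211). Ndufa7, an accessory subunit of complex I, was at 9.54, 10.4, 9.28 and 9.59 FPKM against 6.61, 6.76, 6.70 and 6.84 in WT thalamus. Its Sleepy thalamic levels were 10.1, 9.06, 9.28 and 10.3 against 6.40, 7.97, 7.08 and 6.36. The times did not overlap for Ndufa7 either (0.52 ± 0.05, adjusted p = 0.00025, and 0.47 ± 0.08, adjusted p = 0.00439).

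Ndufs7, a core subunit that carries the iron-sulfur cluster next to ubiquinone, was at 17.5, 17.0, 18.4 and 19.4 FPKM at ZT12.5 and 15, 12.7, 12.0 and 11.6 at ZT0.5 in WT thalamus (0.50 ± 0.08, adjusted p = 0.0026). In Sleepy thalamus Ndufs7 was at 18.3, 17.8, 16.3 and 18.6 against 12.7, 15.3, 13.1 and 13.0 (0.39 ± 0.07, adjusted p = 0.00529). Uqcrc1 of complex III was at 25.5, 23.8, 23.7 and 25.5 FPKM against 20.4, 18.7, 20.2 and 20.4 in WT thalamus. The Sleepy values were 25.2, 24.5, 25.4 and 25.5 against 19.6, 21.2, 20.7 and 21.4, and neither genotype overlapped (0.30 ± 0.05, adjusted p = 0.00237, and 0.28 ± 0.04, adjusted p = 0.00358). Cox8a of complex IV was at 150, 160, 149 and 151 FPKM against 134, 135, 115 and 115 in WT and at 174, 175, 153 and 175 against 121, 134, 144 and 141 in Sleepy thalamus, again without overlap (0.29 ± 0.06, adjusted p = 0.00919, and 0.32 ± 0.07, adjusted p = 0.0101). The calls of Atp5d, Ndufa7, Ndufs7, Uqcrc1, Cox8a and Uqcrb in thalamus held in both genotypes when any 1 of the 8 libraries was left out.

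Uqcrb (chr13:66900617-66905378, minus strand) moved the other way, and did so in cortex of Sleepy mice too. In WT thalamus it was at 14, 12.9, 11 and 14.5 FPKM at ZT12.5 and 17.1, 18.6, 17.5 and 20.7 at ZT0.5 (-0.49 ± 0.09, adjusted p = 0.00448). Sleepy thalamus gave 14.3, 12.8, 13.9 and 12.3 against 18.1, 20.2, 19.4 and 19.1 (-0.53 ± 0.06, adjusted p = 0.00108). All ZT12.5 libraries lay below all ZT0.5 libraries in both. Sleepy cortex gave 11.5, 11.7, 13.5 and 13.5 against 21.4, 20.9, 19.6 and 19.8 (-0.70 ± 0.07, adjusted p = 0.00141), the largest time difference of any member there. In WT cortex the values were 15.9, 10.7, 14.6 and 14.2 against 16.1, 16.0, 17.6 and 21, also without overlap, but the test was not passed (-0.36 ± 0.13, adjusted p = 0.176). Uqcrb is one of the 6 members that differed between the kinds of WT RPKM cortex library, whereas the FPKM libraries used here spanned 4.13 to 4.60 in mean ribosomal protein gene level; its part in the time difference was not tested.

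Ndufa4, whose protein is now placed in complex IV, was lower at ZT12.5 in WT thalamus: it was at 29.1, 28.7, 28.6 and 32.7 FPKM at ZT12.5 and 39.4, 39.2, 40.6 and 39.3 at ZT0.5 (-0.41 ± 0.05, adjusted p = 0.00079), with -0.16 ± 0.08 in Sleepy thalamus (adjusted p = 0.218), and the interaction test did not call the difference. Cox6a2 was at 8.43, 5.80, 5.19 and 6.80 FPKM against 4.86, 3.84, 4.19 and 4.83 in WT thalamus, without overlap (0.54 ± 0.14, adjusted p = 0.0232). That call was lost without ZT12.5 library 4 or ZT0.5 library 2 or 3, with adjusted p between 0.0102 and 0.0599 over all alternatives. The Sleepy thalamic levels of Cox6a2 were 7.95, 6.08, 5.51 and 7.41 against 3.55, 4.85, 5.42 and 5.38, also without overlap, with 0.49 ± 0.16 and adjusted p = 0.0538. Several abundant subunits were not called in either genotype in thalamus: Atp5b differed by 0.01 and -0.04 (adjusted p = 0.843 and 0.547), Sdha by -0.06 and 0.01 (0.403 and 0.935), Ndufv1 by 0.20 and 0.02 (0.126 and 0.855) and Cox5a by -0.16 and -0.09 (0.133 and 0.242).

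In Sleepy cortex the calls that held in all 8 leave-outs were those of Uqcrb and 4 higher members: Cox8a (0.35), Uqcr11 (0.40), Ndufa8 (0.32) and Ndufa13 (0.31), the last 2 accessory subunits of complex I. With the deposited values not rescaled none of these 4 was called (0.26, 0.31, 0.23 and 0.22, adjusted p from 0.0514 to 0.101), while Uqcrb was (-0.79). The other lists moved in several ways with time in thalamus. Of 13 mitochondrially encoded genes, 7 were lower at ZT12.5 and 0 higher in both genotypes, with medians of -0.33 in WT and -0.35 in Sleepy mice, so they did not share the direction of most called nuclear members. Glycolysis genes gave 9 higher and 1 lower of 16 in WT and 10 and 0 in Sleepy thalamus. Citric acid cycle genes gave 2 higher and 3 lower of 16 in WT and 1 and 2 in Sleepy thalamus. Oligodendrocyte markers were 4 higher and 1 lower of 8 in WT thalamus (sums of 817 to 868 FPKM at ZT12.5 and 730 to 849 at ZT0.5) and 0 higher and 4 lower in Sleepy thalamus (610 to 717 against 818 to 906). Blood markers were 4 higher of 5 in WT (75.3 to 156 against 55.0 to 75.6) and 0 in Sleepy thalamus, and none of the choroid plexus markers passed, with sums from 12.5 to 1632 across these libraries. The astrocyte sum was 215 to 253 FPKM at ZT12.5 against 243 to 256 at ZT0.5 in WT thalamus. In Sleepy thalamus it was 217 to 227 against 250 to 269. Hypothalamic markers summed to 34.6 to 86.2 against 77.0 to 102 in WT thalamus. Their Sleepy thalamic sums were 6.23 to 119 against 48.0 to 118. In Sleepy cortex the astrocyte sum was 312 to 325 against 337 to 340 and the neuron sum 584 to 654 against 543 to 611. The part of all these marker shifts in the members' time differences was not tested.

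Genotype was compared between Sleepy and WT eGFP mice within each region and time. No member was called in any of the 6 comparisons. At ZT0.5 the share of all genes called was 0% in cortex and in hypothalamus but 0.0239% in thalamus, and 2 cortical, 1 thalamic and 1 hypothalamic member were at an unadjusted p below 0.05. At ZT12.5 it was 0% in all 3, with 5, 15 and 4 members at an unadjusted p below 0.05, and voom called 0 members in each of the 6. The members' medians were -0.01, 0.04 and 0.02 at ZT0.5 and 0.01, 0.07 and 0.03 at ZT12.5.

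The HDAC4CA comparisons asked which genes differ when this form of a class IIa deacetylase is delivered. Most subunit genes had no call, and 1 subunit isoform, low in reads, had large differences. Against mCherry in WT mice, 1 member was higher and 1 lower of 78 in cortex (6.49% of all genes called), 1 and 1 of 78 in thalamus (6.54%) and 0 of 77 in hypothalamus (0.128%; 4 at an unadjusted p below 0.05 and 0 by voom). Against eGFP in Sleepy mice at ZT0.5, 2 were higher and 1 lower of 78 in cortex (4.04%), 0 and 1 of 79 in thalamus (8.39%) and 0 of 78 in hypothalamus (0.0175%; 5 and 0). At ZT12.5, 1 was higher and 2 lower of 78 in cortex (10.4%), 3 and 0 of 79 in thalamus (12.2%) and 0 of 79 in hypothalamus (0.0691%; 5 and 0). The members' share called was close to that of all genes in Sleepy cortex at ZT0.5. It was below that of all genes in the other comparisons of cortex and thalamus. These counts are small and moved with the processing, as given in the closing section.

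**Figure D4:**
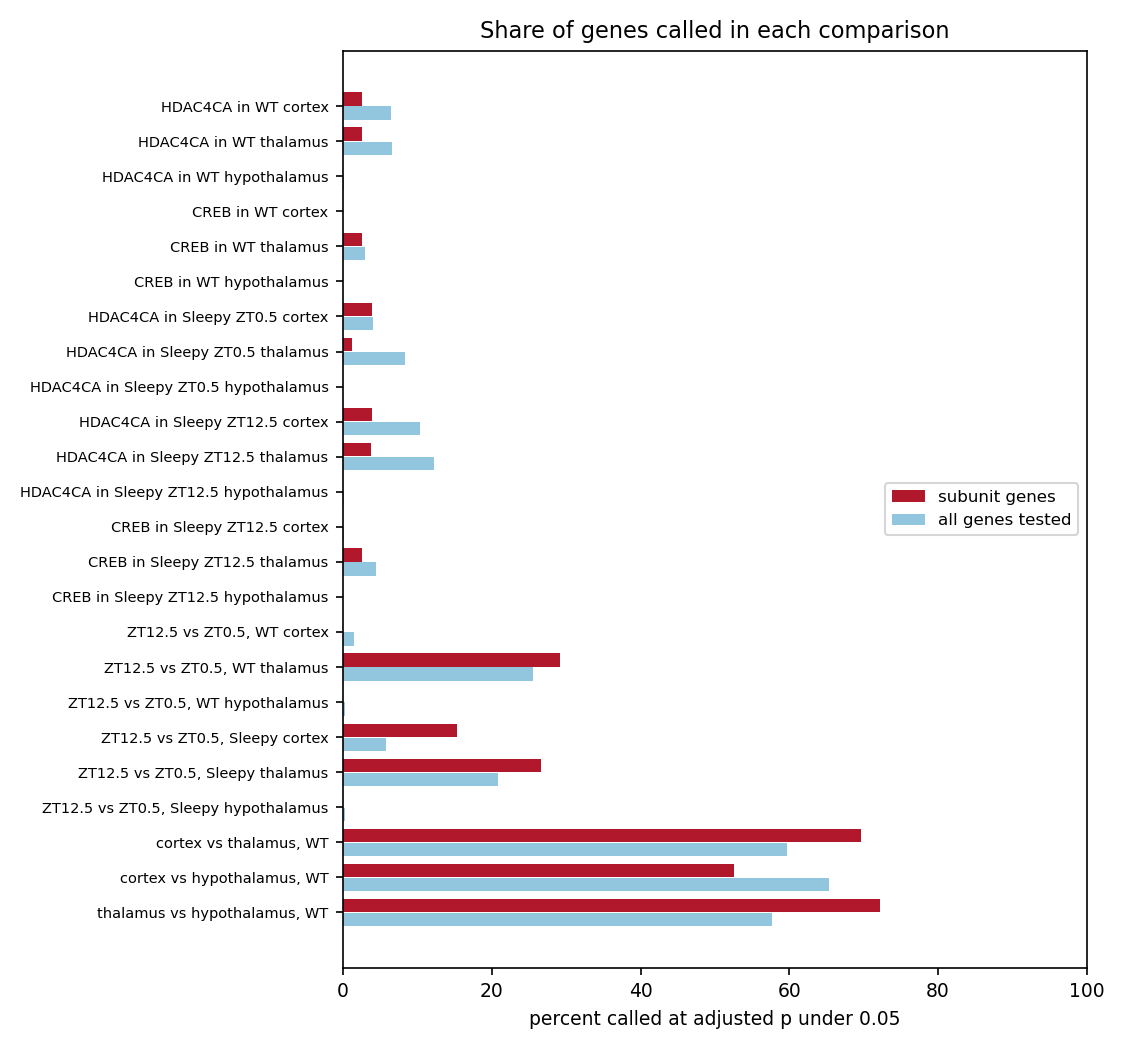
Percent of members and of all genes tested that limma called at an adjusted p below 0.05 in 24 comparisons. The members lie above all genes in Sleepy cortex by time (12 of 78 against 5.77%). In the HDAC4CA comparisons they lie close to all genes in Sleepy cortex at ZT0.5 and below them elsewhere in cortex and thalamus.

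Cox6a2 was the lower member in 4 of these comparisons. In WT cortex it was at 0.858, 0.876, 0.760 and 0.663 RPKM with HDAC4CA and 2.71, 2.04, 2.16 and 3.01 with mCherry, from 8 to 11 and from 22 to 56 reads per library. The HDAC4CA libraries alone would not have reached the filter of 10 reads on average. Cox6a2 therefore entered this comparison only through the mCherry libraries, and its call is given as a description. All HDAC4CA libraries lay below all mCherry libraries, with means of 0.789 ± 0.0984 and 2.48 ± 0.457 (SD, n = 4) and a log2 difference of -1.53 ± 0.14 (adjusted p = 0.000624). The call held in all 8 fits that left out 1 library and in all 8 other alternatives, with adjusted p from 8.84e-06 to 0.00474. In WT thalamus it was at 5.58, 3.69, 4.67 and 4.31 RPKM against 7.20, 7.38, 6.68 and 6.99, again without overlap (-0.63 ± 0.10, adjusted p = 0.00575, from 0.000881 to 0.0254 over all alternatives). In WT hypothalamus the levels were 0.508, 0.546, 0.843 and 1.08 against 1.26, 1.39, 1.60 and 1.54, which did not overlap but missed the threshold (-0.92 ± 0.20, adjusted p = 0.128).

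Sleepy mice gave lower Cox6a2 levels with HDAC4CA less evenly. At ZT0.5 in cortex the values were 0.748, 0.472, 0.712 and 0.339 FPKM with HDAC4CA and 2.02, 2.91, 1.06 and 2.35 with eGFP, without overlap (-1.68 ± 0.30, adjusted p = 0.0178). These came from 4 to 7 reads per library with HDAC4CA and 9 to 30 with eGFP, so the gene entered this comparison only through the eGFP libraries and the call is given as a description. That call was lost without HDAC4CA library 2 or eGFP library 1, with no filter on low values and with the replicate block, with adjusted p from 0.00506 to 0.0674. In thalamus at ZT0.5 the values were 3.77, 2.55, 2.61 and 2.62 against 3.55, 4.85, 5.42 and 5.38, and 1 library of each group overlapped (-0.71 ± 0.16, adjusted p = 0.0243). This call was lost when HDAC4CA library 2, 3 or 4 or eGFP library 2, 3 or 4 was left out, and adjusted p ran from 0.00804 to 0.0963.

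At ZT12.5 no Cox6a2 difference passed the test in Sleepy mice. Cortex gave 0.875, 0.206, 1.12 and 0.845 FPKM with HDAC4CA against 1.86, 1.05, 1.79 and 1.86 (-1.15 ± 0.41, adjusted p = 0.118), and thalamus gave 4.28, 4.39, 5.15 and 6.63 against 7.95, 6.08, 5.51 and 7.41 (-0.40 ± 0.15, adjusted p = 0.128). Both pairs of groups overlapped. Hypothalamus at ZT12.5 gave 0.964, 0.540, 0.614 and 0.439 against 1.49, 1.14, 1.29 and 1.30, without overlap (-0.97 ± 0.20, adjusted p = 0.211). In cortex and hypothalamus at ZT12.5 the HDAC4CA libraries alone would not have reached the read filter. Cox6a2 entered these comparisons only through the eGFP libraries, so its differences there are given as a description. Hypothalamus at ZT0.5 was under the read filter, at 0.347, 0.800, 0.314 and 0.770 against 0.478, 1.07, 1.17 and 0.783 FPKM. Cox6a1, the broad isoform of the same subunit, gave differences between -0.12 and 0.06 over the 9 HDAC4CA comparisons and was called in none. No subunit gene was called for a difference in HDAC4CA effect between thalamus and hypothalamus by the interaction test (1.55%, 2.59% and 2.18% of all genes called in WT, Sleepy ZT12.5 and Sleepy ZT0.5 mice; 3, 7 and 5 members at an unadjusted p below 0.05, and 0 by voom), although 1 was called in Sleepy mice at ZT12.5 without library 1 of the eGFP hypothalamus. For Cox6a2 at ZT0.5 in Sleepy mice that test says little, since the gene entered it only through the thalamic libraries.

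**Figure D5:**
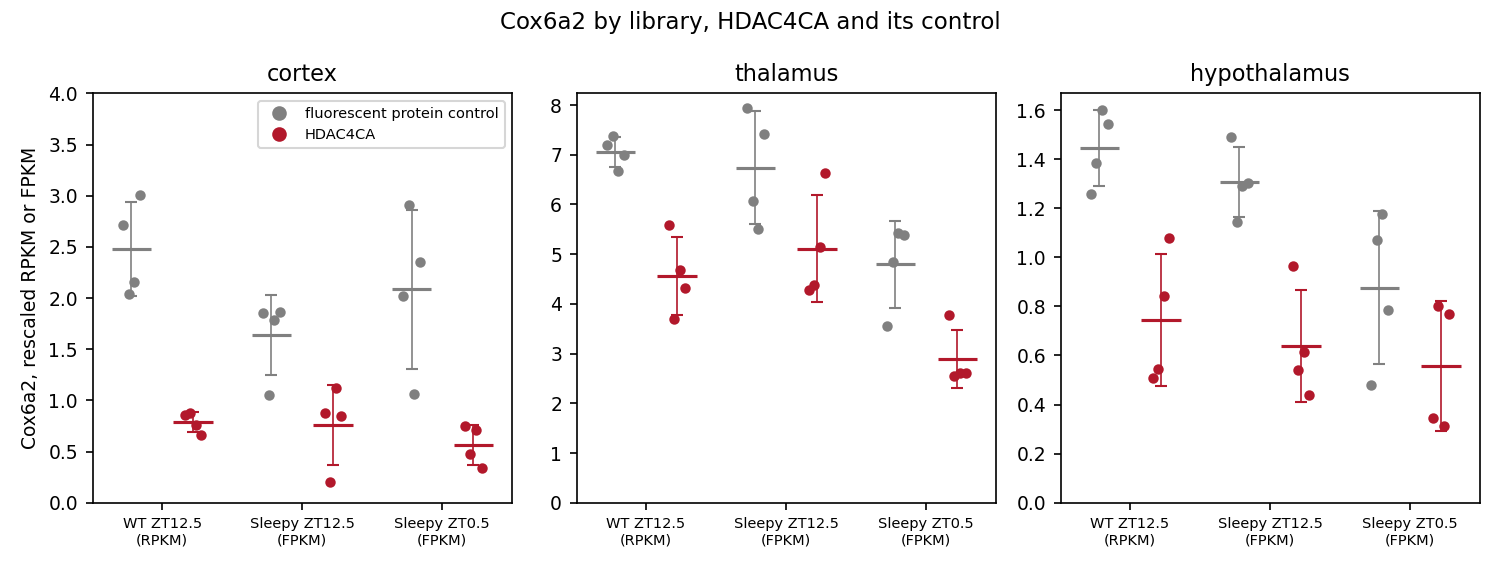
Cox6a2 level in each library (rescaled RPKM for WT, FPKM for Sleepy mice) with the control virus and with HDAC4CA, by region and time, with bars for the mean ± SD of 4 libraries. HDAC4CA libraries lie below the controls without overlap in WT cortex (0.663 to 0.876 against 2.04 to 3.01 RPKM), WT thalamus and WT hypothalamus, and overlap the controls in Sleepy thalamus.

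The other calls with HDAC4CA were small and less stable. Ndufc2, an accessory subunit of complex I, was higher in WT cortex at 31.6, 33.2, 35.0 and 37.1 against 27.1, 30.9, 27.9 and 29.7 RPKM (0.24 ± 0.06, adjusted p = 0.0484), a call kept only when HDAC4CA library 1 was the one left out (0.0184 to 0.491 over all alternatives). Uqcr11 was higher in WT thalamus at 17.1, 18.6, 16.5 and 18.0 against 14.7, 15.4, 15 and 15.4 RPKM (0.22 ± 0.05, adjusted p = 0.0195). Its groups did not overlap, and the call was lost without HDAC4CA library 4 or mCherry library 1, 3 or 4 (0.0197 to 0.126). Ndufb6 was higher in Sleepy cortex at ZT0.5, at 23.8, 22.9, 24.4 and 23.7 against 20.2, 19.8, 18.2 and 20.2 FPKM (0.27 ± 0.05, adjusted p = 0.0184), lost without eGFP library 2 or 3 (0.0182 to 0.103). Ndufa8 was higher there too, at 27.7, 28.2, 28.5 and 27.7 against 25.4, 22.5, 24.0 and 24.3 FPKM (0.22 ± 0.05, adjusted p = 0.0361), and was lost without library 2, 3 or 4 of either group (0.0363 to 0.129).

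At ZT12.5 in Sleepy cortex, Cox8a was lower at 142, 148, 146 and 157 against 163, 174, 172 and 164 FPKM (-0.18 ± 0.04, adjusted p = 0.0203; lost without HDAC4CA library 1, 2 or 3 or eGFP library 3; 0.0145 to 0.152), and Cox7a2l was lower at 27.2, 27.7, 24.9 and 25.4 against 28.7, 31.5, 31.1 and 32.2. The Cox7a2l difference was -0.23 ± 0.05 (adjusted p = 0.0219), lost without HDAC4CA library 3 or 4 or eGFP library 2, 3 or 4 (0.0143 to 0.125). Uqcrb was higher at 14.3, 15.6, 16.3 and 14.2 against 11.5, 11.7, 13.5 and 13.5 FPKM (0.26 ± 0.07, adjusted p = 0.0439), lost without any HDAC4CA library or eGFP library 1 or 2 (0.038 to 0.114). In Sleepy thalamus at ZT12.5, Cox6b1 was higher at 85.4, 85.2, 90.3 and 87.1 against 74.1, 79.0, 77.6 and 80.2 FPKM (0.16 ± 0.04, adjusted p = 0.0313), lost without HDAC4CA library 1, 3 or 4 or eGFP library 1, 2 or 3 (0.0329 to 0.46). The accessory subunits Ndufb6 (0.22 ± 0.06, adjusted p = 0.0478; 0.0354 to 0.376) and Ndufb8 (0.23 ± 0.06, adjusted p = 0.0304; 0.0126 to 0.316) were also higher. The Ndufb6 call was lost without any 1 library but eGFP library 4, and the Ndufb8 call without HDAC4CA library 2 or 4 or eGFP library 1, 3 or 4.

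In that same thalamic comparison the choroid plexus markers were 0 higher and 10 lower with HDAC4CA, with sums of 9.52 to 14.4 against 562 to 1632 FPKM, blood markers were 0 higher and 5 lower (43.2 to 92.3 against 97.3 to 203), and 5 neuron markers were higher and 0 lower of 8 (628 to 704 against 521 to 555). In WT cortex 1 of the choroid plexus markers was higher and 0 lower (0.979 to 216 against 1.65 to 2.14 RPKM), 1 neuron marker was higher and 0 lower (655 to 679 against 642 to 716), and the blood marker sum was 23.8 to 76.1 against 24.4 to 36.1. In WT thalamus 3 neuron markers were higher (737 to 835 against 668 to 713), and in Sleepy thalamus at ZT0.5 5 were (636 to 654 against 496 to 558 FPKM). The microglia sum in WT thalamus was 55.0 to 67.8 against 43.6 to 54.1 RPKM. In Sleepy thalamus at ZT0.5 the blood sum was 35.3 to 62.7 against 71.8 to 130 FPKM. The oligodendrocyte sum there was 637 to 825 against 818 to 906. In WT cortex the oligodendrocyte sum was 253 to 305 against 299 to 359 RPKM. The cortical marker sum in WT cortex was 64.4 to 70.7 against 70.9 to 87.0 RPKM. In Sleepy cortex it was 57.0 to 68.6 against 57.3 to 74.1 FPKM at ZT0.5 and 54.6 to 59.4 against 63.4 to 79.7 at ZT12.5. In Sleepy cortex at ZT0.5, 3 of 5 blood markers were lower (40.0 to 57.5 against 66.8 to 121) and 2 of 8 oligodendrocyte markers were lower (214 to 240 against 252 to 291). At ZT12.5 the same region gave 2 astrocyte markers higher and 1 lower of 6 (333 to 367 against 312 to 325), 2 of 6 microglia markers higher (48.0 to 68.1 against 48.3 to 49.2), 1 neuron marker higher and 2 lower of 8 (571 to 603 against 584 to 654) and 0 blood markers called (43.8 to 81.7 against 87.7 to 213). Their part in the members' differences was not tested. Glycolysis genes, which feed the chain with pyruvate, gave these counts with HDAC4CA: 3 higher and 0 lower of 16 in WT cortex, 2 and 1 in WT thalamus, 9 and 1 in cortex and 8 and 1 in thalamus of Sleepy mice at ZT0.5, and 10 and 1 and 9 and 0 at ZT12.5. None of the mitochondrially encoded genes was called in any of the 9 comparisons (8 tested in RPKM and 13 in FPKM libraries).

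CREB delivery gave few calls among the members. In WT mice against mCherry, 0 of 78 were called in cortex (0.0435% of all genes; 3 at an unadjusted p below 0.05 and 0 by voom), 2 were higher and 0 lower of 79 in thalamus (2.91%) and none in hypothalamus (0%; 4 and 0). In Sleepy mice against eGFP at ZT12.5, 0 of 78 were called in cortex (0.0613%; 2 and 0), 2 were higher and 0 lower of 79 in thalamus (4.39%) and none in hypothalamus (0.00574%; 2 and 0). In WT thalamus these were Ndufa7, at 11.5, 11.3, 11.8 and 10.7 against 9.09, 9.41, 10.3 and 8.41 RPKM (0.29 ± 0.06, adjusted p = 0.0343), and Ndufa2, at 24.9, 25.0, 24.6 and 26.2 against 23.1, 21.8, 23.2 and 21.8 RPKM (0.17 ± 0.04, adjusted p = 0.0472), both accessory subunits of complex I. Neither pair of groups overlapped. The Ndufa2 call was lost when any 1 of the 8 libraries was left out (0.0213 to 0.17 over all alternatives) and the Ndufa7 call was kept only without mCherry library 3 (0.017 to 0.103). The count of members was 5 without CREB library 1, 0 without CREB library 2 or 3 or mCherry library 2 or 4, and 1 without the others. Among cell markers in thalamus with CREB, 1 astrocyte and 1 neuron marker were higher in each genotype. The astrocyte sum was 352 to 384 against 332 to 352 RPKM in WT and 235 to 272 against 217 to 227 FPKM in Sleepy mice, and the blood sum was 26.8 to 30.3 against 21.4 to 34.9 and 73.6 to 103 against 97.3 to 203. The choroid plexus sum was 271 to 1308 against 30.9 to 1718 and 19.9 to 980 against 562 to 1632, with 0 markers called in either. Their part in the members' differences was not tested.

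In Sleepy thalamus the calls included Atp5sl, an assembly factor by function, at 6.45, 6.66, 5.74 and 6.37 FPKM with CREB against 4.91, 5.46, 4.48 and 5.23 (0.32 ± 0.07, adjusted p = 0.0407). Its groups did not overlap, and the call was kept only without CREB library 3 or eGFP library 2 (0.0203 to 0.113 over all alternatives). None of the 4 members with TGACGTCA in the promoter window (Ndufa10, Ndufa11, Ndufb2 and Uqcrfs1) was among the calls with CREB. Ndufa7, called in WT thalamus, is among the 24 of 67 with TGACG (35.8%), and Ndufa2 and Atp5sl are not. A link between motif and call was not tested. Cox6a2 stayed near its control levels with CREB, at 2.82, 2.71, 3.42 and 2.06 RPKM in WT cortex (0.14, adjusted p = 0.919), and its differences were -0.01 in WT thalamus (0.954) and -0.09 in Sleepy thalamus (0.761). The thalamus-minus-hypothalamus difference in CREB effect was called for 0 members in WT and Sleepy mice (0.19% and 0.237% of all genes called; 14 and 7 members at an unadjusted p below 0.05, and 0 by voom). Across all 15 virus and 6 genotype comparisons, none of the 5 members followed throughout as 1 per complex (Ndufv1, Sdha, Uqcrc1, Cox5a and Atp5b) was called, with virus differences between -0.07 and 0.21.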

How the data were processed

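Polyadenylated RNA from 120 libraries was measured as gene-level RPKM in 36 libraries and FPKM in 84, values the authors deposited, with units per the file headers. Per the submitters' processing notes CASAVA 1.9, STAR 2.6.1a, featureCounts, edgeR 3.28.1 and GRCm38 were used. How strand and reads that map to several places were handled is not given in the sources used here. Members with near-identical copies elsewhere in the genome could therefore gain or lose reads.

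Of 49585 gene rows, 26 with symbols turned into dates and 93 repeats were left out, leaving 49466. With exon lengths from GENCODE M21 (95.2% of genes), values up to 20 reads were whole reads within 0.1 for 94.3% to 95.7% of cases, which gave read totals with medians of 21.1 M reads in RPKM and 18.2 M in FPKM libraries. No pair of libraries held identical values (0 pairs). The replicates are labelled biological.

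Values were divided by TMM factors, computed from recovered reads (trims of 0.3 and 0.05) separately over all FPKM libraries, RPKM cortex, and RPKM thalamus with hypothalamus (0.769 to 1.27 in FPKM and 0.912 to 1.12 in RPKM libraries). Levels printed are these rescaled values. RPKM and FPKM libraries were not compared with each other. Tested genes had 10 or more recovered reads on average over the libraries compared (1 or more RPKM or FPKM where no length was known) and were analysed on log2(value + 0.1) with limma 3.58.1 (trend and robust options) in R 4.3.3, with Benjamini-Hochberg adjustment over all genes tested. Genes below an adjusted p of 0.05 are described as called, and fold changes on this scale understate those of low genes. The script was tested on simulated data. Region comparisons pooled both times. Alternatives were no rescaling, a pseudocount of 1, no filter, voom on recovered reads, the replicate number as a block, each library left out, TMM over the libraries compared, and for WT cortex number 4 left out or a term for library kind.

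Same-numbered libraries deviated together in every pair (correlation above 0.1) in 2 of 42 comparisons, HDAC4CA and CREB in WT cortex (0.128 to 0.648 and 0.129 to 0.710). In both the highest value was that of the number 4 libraries, which are of another kind there, so pairing cannot be told apart from library kind. Named genes were, per comparison, up to 8 members called in each direction, a fixed member per complex, isoform sets, the highest and lowest members, and the largest region differences without overlap. Members and lists were chosen with earlier results of these data known. The values of 1 member are not reported here.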

Additional observations from a re-analysis of the deposited data

Results flagged for a closer look

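Of 106 groups of 4 libraries examined, 6 held a library that stood far from the other 3 (by Dixon's gap-to-range ratio), where chance gives about 1 in 20. The mean log2 level over the members was 3.87 in hypothalamus library 3 of Sleepy eGFP mice at ZT0.5, against 3.92 to 3.93 in the others, and 3.8 in hypothalamus library 1 of WT HDAC4CA mice, against 3.94 to 3.96. Atp5b was at 91.3 FPKM in hypothalamus library 4 of WT eGFP mice at ZT12.5, against 92.2 to 92.4. Uqcrc1 was at 18.7 FPKM in thalamus library 2 of WT eGFP mice at ZT0.5, against 20.2 to 20.4. Cox6a2 was at 3.77 FPKM in thalamus library 1 of Sleepy HDAC4CA mice at ZT0.5, against 2.55 to 2.62, and at 1.05 FPKM in cortex library 2 of Sleepy eGFP mice at ZT12.5, against 1.79 to 1.86.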

How the results depend on the processing

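The counts of members in the 3 region pairs stayed within 52 to 59, 38 to 46 and 55 to 63 when any 1 library was left out, and a pseudocount of 1 kept all 42 counts within 1.5 times. Small counts moved most. With the deposited values not rescaled the counts were 1 and 0 (HDAC4CA in WT cortex, CREB in WT thalamus), 1 and 5 (HDAC4CA in Sleepy cortex and thalamus at ZT0.5), 0 and 0 (the same at ZT12.5), 5 (CREB in Sleepy thalamus), 1 and 1 (time in WT and Sleepy cortex), and 74 and 73 (cortex against hypothalamus in WT and Sleepy mice). With no filter they were 1, 1 and 0 (HDAC4CA in WT cortex and thalamus, CREB in WT thalamus), 0 and 0 (HDAC4CA in Sleepy cortex and thalamus at ZT0.5), 1 and 1 (at ZT12.5), 0 (CREB in Sleepy thalamus), and 15, 5 and 12 (time in WT thalamus, Sleepy cortex and Sleepy thalamus); more genes entered the adjustment there. With voom they were 1 (HDAC4CA in WT cortex), 2 (Sleepy thalamus at ZT0.5), 1 (CREB in Sleepy thalamus) and 2 (time in WT cortex). Without number 4 the WT cortex HDAC4CA count was 1, with fewer samples. TMM over the libraries compared gave 4 and 5 (HDAC4CA and CREB in WT thalamus) and 3 (HDAC4CA in Sleepy thalamus at ZT0.5). Why the counts moved was not tested for any of these settings.

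The replicate block gave 0 for CREB in WT thalamus, 0 and 0 for HDAC4CA in Sleepy cortex and thalamus at ZT0.5, 5 for Sleepy cortex at ZT12.5 and 1 for CREB in Sleepy thalamus. In the 2 comparisons where same-numbered libraries deviated together the blocked counts were 2 (HDAC4CA in WT cortex) and 0 (CREB in WT cortex), as without it. Pairing by number cannot be told apart there from the other kind of the number 4 libraries. Elsewhere the libraries share only a number.

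Leaving out 1 library gave 1 to 2 and 1 to 3 for HDAC4CA in WT cortex and thalamus, 0 to 5 for CREB in WT thalamus, 1 to 4 and 0 to 2 for HDAC4CA in Sleepy cortex and thalamus at ZT0.5, 0 to 3 and 0 to 3 at ZT12.5, 0 to 1 for CREB in Sleepy thalamus, 5 to 14 and 12 to 23 for time in Sleepy cortex and thalamus, and 0 to 1 for the thalamus-minus-hypothalamus difference in HDAC4CA effect in Sleepy mice at ZT12.5.

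Not rescaling turned 25 log2 differences around. For WT cortex against hypothalamus they became -0.25 (Atp5b), -0.27 (Atp5g1), -0.38 (Atp5g2), -0.32 (Cox5a), -0.14 (Cox6b1), -0.35 (Cox7a2), -0.13 (Ndufa10), -0.13 (Ndufs3), -0.24 (Ndufv1) and -0.18 (Uqcrc1), and for WT cortex against thalamus -0.21 (Cox8a). In Sleepy mice cortex against hypothalamus gave -0.32 (Atp5b), -0.29 (Atp5g1), -0.37 (Atp5g2), -0.38 (Cox5a), -0.068 (Cox5b), -0.17 (Cox6b1), -0.39 (Cox7a2), -0.18 (Ndufa10), -0.18 (Ndufs3), -0.31 (Ndufv1), -0.21 (Uqcrc1) and -0.079 (Uqcrq), cortex against thalamus -0.14 (Sdhb), and thalamus against hypothalamus -0.038 (Atp5g2). The shift of all genes under that setting is of the same sign. Low reads limit Cox6a2 and Cox7a1.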
